A study of Drosophila melanogaster with 18 samples.

Results

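The genes described here build and place the maternal messages that set the body axes of the Drosophila embryo. They are osk, nos, bcd and grk, whose mRNAs are localised in the oocyte, and stau, egl, BicD, exu and swa, whose products carry, anchor or translate such messages. Members were the probe sets (groups of short oligonucleotides read together on an array) whose platform annotation names 1 of these genes and no other. That rule gave 13 probe sets for the 9 genes, out of 18769 probe sets and 11982 genes measured. The rule used no measured value, but the genes were chosen with earlier results of these data known. The gene nos was found under its full name, nanos. The genes osk, nos and bcd lie on chromosome arm 3R, grk and BicD on 2L, stau, egl and exu on 2R, and swa on the X, in the RefSeq annotation of Release 6. Coordinates are left out, because the sources used here do not name the build of the array annotation.

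Ovary RNA of female flies was hybridised to Affymetrix Drosophila Genome 2.0 arrays, 1 sample to an array, with 3 biologically independent samples in each of 6 groups. At 20 °C, which the labels call untreated, the groups were yw (the control strain), Marcal1del/del (a homozygous deletion in Marcal1, the fly relative of human SMARCAL1, which anneals DNA strands), RpII2154/FM7 (an RpII215 allele, RpII215 encoding the largest RNA polymerase II subunit, over the balancer FM7) and RpII2154/FM7;Marcal1del/del. At 25 °C, which the labels call heat stressed, only yw and Marcal1del/del were sampled. For replicates 2 and 3 of RpII2154/FM7 the genotype label reads FM8 and FM9, and the titles, which read FM7, were followed. Fly age, the number of females per sample and whether the stocks share a background apart from the named alleles are not stated in the sources used here.

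As background, nurse cells make these mRNAs and send them into the oocyte along microtubules. Egl, an RNA-binding adaptor, and BicD, which links cargo to the motor dynein, drive that step. Within the oocyte, osk mRNA goes to the posterior pole with Stau, a double-stranded RNA-binding protein, and Osk protein assembles the pole plasm, where nos is translated into a repressor that permits abdomen formation. The bcd mRNA is held at the anterior by Exu, Swa and later Stau, and encodes the homeodomain protein that patterns head and thorax. The grk mRNA lies beside the oocyte nucleus and encodes a TGF-alpha-like ligand read by the follicle cells. Localisation itself is not measured by an RNA level in whole ovaries.

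Levels are deposited log2 values made by RMA, per the submitters' processing notes, a method that corrects background, normalises the arrays together and summarises each probe set, and array medians lay between 4.08 and 4.2. Marcal1 followed its labels, at 7.94 ± 0.49 (SD, n = 3) in yw, 5.87 ± 0.03 in Marcal1del/del and 7.79 ± 0.21 in RpII2154/FM7 at 20 °C. It was 5.84 ± 0.38 in RpII2154/FM7;Marcal1del/del, termed the group with both alleles from here on. At 25 °C it was 8.11 ± 0.24 in yw and 6.03 ± 0.14 in Marcal1del/del. The position of its probes relative to the deletion is not stated in the sources used here, and no probe set here names RpII215 alone. The names of the 6 arrays with RpII2154/FM7 form one series and those of the other 12 another, so array series and the RpII2154/FM7 genotype cannot be told apart.

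The ovary label was checked against marker genes. The 4 measured germline genes of 5 listed lay above the array median on all 18 arrays, with a mean log2 level of 10.62 to 11.02. Of the 4 testis genes, dj, Mst87F and Mst84Da lay below it on every array and bol lay above it on all 18. The 9 measured late eggshell genes, which follow egg chamber stage, averaged 8.75 on RpII2154/FM7 replicate 3 against 13.68 and 13.83 on the other arrays of that group. In yw at 20 °C their mean was 11.17 on replicate 1 and 13.34 and 13.36 on the others. In yw at 25 °C the 5 measured muscle genes of 7 listed averaged 7.27 on replicate 1 and 4.94 and 5.11 on the others. RNA integrity was read from the actin controls, whose 3′ probe set exceeded the 5′ one by 1.70 ± 0.29 (SD, n = 3) with both alleles and by 1.37 ± 0.17 with RpII2154/FM7 alone. In the other groups this difference had means of 0.95 to 1.05.

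All 13 probe sets lay above the array median on all 18 arrays. Of these, 3 differed among the 6 groups, those of stau and egl and the dimmer one of exu, in a moderated F test (adjusted p = 0.019, 0.011 and 0.026). Over all probe sets that test called 8.75%. The median span between the highest and lowest group mean was 0.46 on the log2 scale for the 13, against 0.32 for all probe sets, and the median within-group SD was 0.16 against 0.17. Across 9 comparisons, 117 tests were made on the members. Of these, 4 (3.42%) passed an adjusted p of 0.05, against 1.37% of the tests on all probe sets. An unadjusted p under 0.05 was found in 20 (17.1%), against 10.6% over all probe sets. For single comparisons, the share of all probe sets with such a p, or with groups that did not overlap, is not given here.

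**Figure D1:**
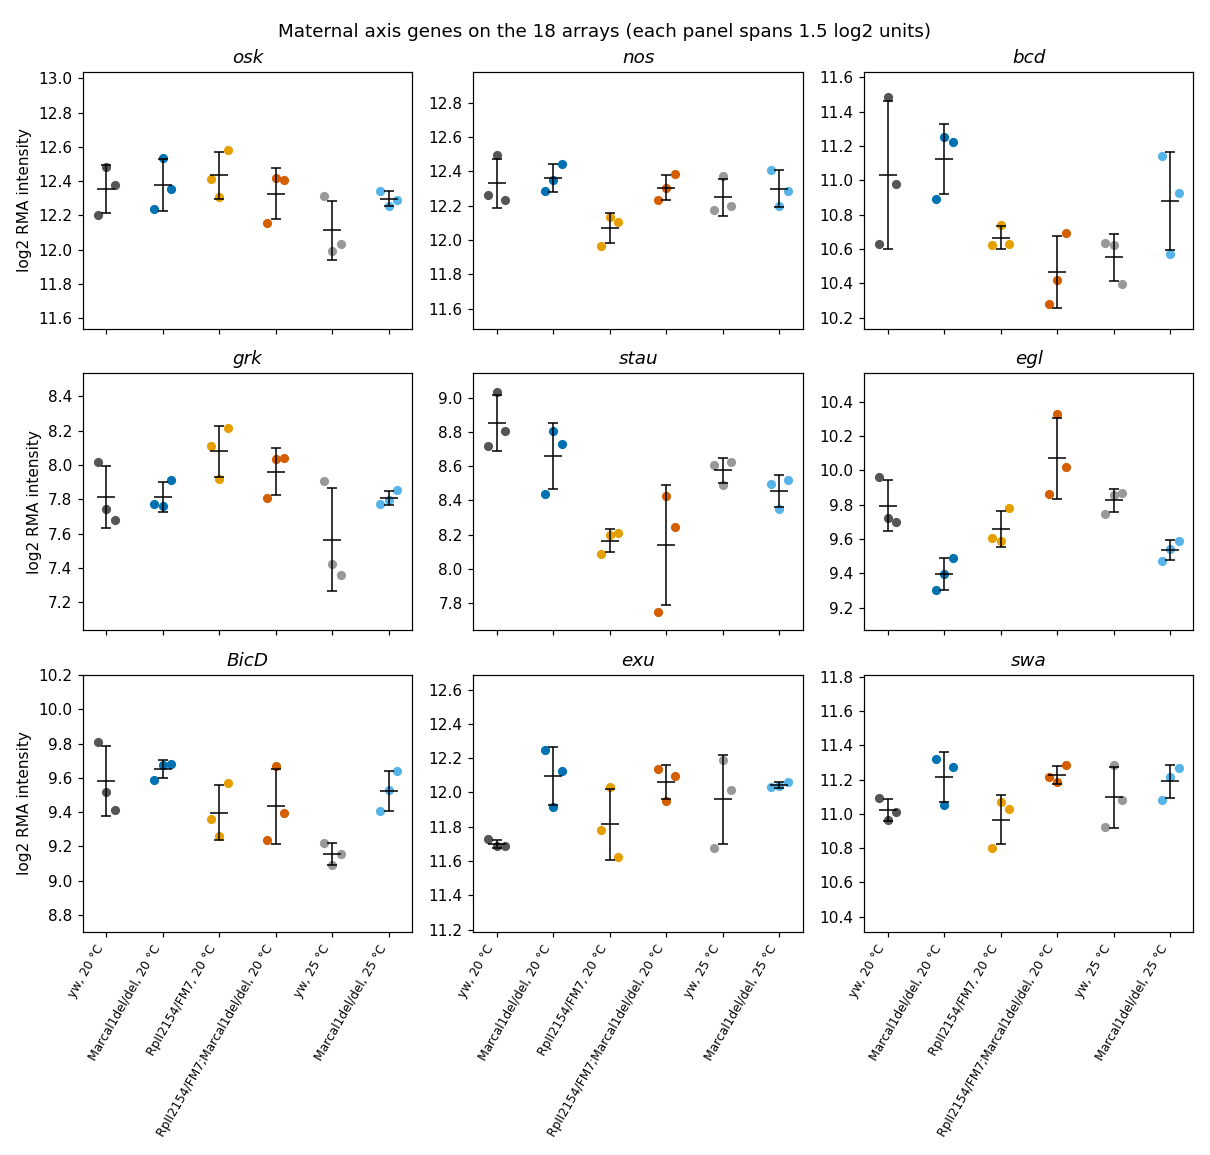
RMA log2 intensity (vertical axis) of the 9 maternal axis and localisation genes in each of the 6 groups (horizontal axis), each gene by its brightest probe set. Points are arrays, and bars give the mean ± SD of 3 arrays. The egl points of RpII2154/FM7;Marcal1del/del lie above those of Marcal1del/del, and the stau points of RpII2154/FM7 lie below those of yw at 20 °C.

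The transport adaptor egl passed the threshold in 2 comparisons. In yw at 20 °C its log2 level was 9.96, 9.72 and 9.70, and in Marcal1del/del it was 9.30, 9.39 and 9.49. It was 9.60, 9.59 and 9.78 in RpII2154/FM7 and, with both alleles, 9.86, 10.33 and 10.02. The Marcal1del/del arrays were thus the lowest of the 4 genotypes at 20 °C and the arrays with both alleles were mostly the highest, overlapping only yw.

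With both alleles, egl was higher than in Marcal1del/del by 0.68 ± 0.11 (SE) on the log2 scale, a ratio of 1.60. The 95% interval was 0.43 to 0.92 on the log2 scale (adjusted p = 0.0027), and the groups did not overlap. The egl probe set was the only one of the 13 called in that comparison, in which 3.85% of all probe sets were called. Without the Marcal1 deletion, RpII2154/FM7 differed from yw in egl by -0.14 ± 0.11 (adjusted p = 0.60), with overlapping groups. Both comparisons set one array series against the other, so series and RpII2154/FM7 cannot be told apart in them.

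The difference in egl between Marcal1del/del and its Marcal1 control had opposite signs in the presence and absence of RpII2154/FM7. It was -0.40 ± 0.11 without RpII2154/FM7 (adjusted p = 0.157) and 0.41 ± 0.11 with it (adjusted p = 0.075), and neither passed the threshold alone. The difference between these effects was 0.81 ± 0.16 (95% interval 0.47 to 1.15, adjusted p = 0.020). Of all probe sets, 0.97% were called in that test, and egl was the only member. Its adjusted p rose to 0.051 to 0.060 when any 1 of 5 arrays was left out, namely yw replicate 1, Marcal1del/del replicate 1 or 2, or RpII2154/FM7 replicate 1 or 2, and to 0.083 when only these 4 groups were fitted.

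At 25 °C egl stood at 9.75, 9.86 and 9.87 in yw and at 9.47, 9.54 and 9.59 in Marcal1del/del. These groups did not overlap, as at 20 °C, but the difference of -0.29 ± 0.11 was not called (adjusted p = 0.42). The temperature differences were 0.03 ± 0.11 in yw and 0.14 ± 0.11 in Marcal1del/del, and neither was called. Between Marcal1del/del and yw at 25 °C, 9 of 9 late eggshell genes had a positive difference, with a median of 1.66 and 0 called.

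Late eggshell genes ran opposite to egl in levels over the 18 arrays. On the 18 arrays the egl level and the mean of the 9 measured eggshell genes of 12 listed had a Pearson r of -0.58 (Spearman rho -0.76), with arrays sharing their groups. After each array was set against its group mean, the r was -0.37. With the actin 3′ minus 5′ difference, egl had an r of 0.46 (rho 0.36) in levels and 0.05 in such deviations. In RpII2154/FM7;Marcal1del/del against Marcal1del/del, 0 of the 9 eggshell genes had a positive difference, the median was -1.91 on the log2 scale, and 2 were called as lower. Their mean ranged from 11.16 to 12.21 with both alleles and from 13.33 to 13.96 in Marcal1del/del. The 4 germline genes had a median difference of 0.12 and none was called. The part of egg chamber stage and of RNA integrity in the egl result was not tested. In these bulk samples, fewer cells of a type and less RNA per cell cannot be told apart.

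The gene stau, whose protein accompanies osk and bcd mRNAs, was lower in RpII2154/FM7 than in yw. Its log2 levels were 8.72, 9.03 and 8.80 in yw at 20 °C and 8.09, 8.20 and 8.21 in RpII2154/FM7. They were 8.44, 8.80 and 8.73 in Marcal1del/del and 7.75, 8.43 and 8.24 in RpII2154/FM7;Marcal1del/del. Every array with RpII2154/FM7 lay below every array without it at the same temperature.

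Between RpII2154/FM7 and yw, stau fell by 0.69 ± 0.15 (SE) on the log2 scale, a ratio of 1.61 (upper end of the 95% interval -0.38, adjusted p = 0.019). In the same comparison the dimmer probe set of exu rose, so 2 of the 13 were called, against 2.76% of all probe sets. In the Marcal1del/del background, RpII2154/FM7 went with a stau difference of -0.52 ± 0.15 that missed the threshold (adjusted p = 0.060), again without overlap. It was called when dim probe sets were left out of the adjustment (adjusted p = 0.044) and without replicate 2 of the group with both alleles, where it was -0.66 (adjusted p = 0.028). The test of the difference between the backgrounds gave 0.17 ± 0.21 (95% interval -0.27 to 0.61, adjusted p = 0.84).

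At 25 °C stau was 8.61, 8.49 and 8.63 in yw and 8.50, 8.35 and 8.52 in Marcal1del/del. The yw arrays at 25 °C all lay below those at 20 °C, by 0.28 ± 0.15 on average, which was not called (adjusted p = 0.73). The 12 arrays of one array series spanned 8.35 to 9.03 for stau and the 6 of the other 7.75 to 8.43, so the array series moved with this result as the genotype did, and they cannot be told apart. Over 18 arrays stau and the actin 3′ minus 5′ difference had an r of -0.55 (rho -0.55). After each array was set against its group mean, their r was 0.32. The call was lost without yw replicate 2 (adjusted p = 0.106), yw replicate 3 (0.059) or RpII2154/FM7 replicate 1 (0.071), and in a fit of these 2 groups alone (0.061).

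The gene exu, needed to bring bcd mRNA to the anterior, is read by a bright and a dim probe set that gave different answers. The bright one, 1639059_s_at, stood at 11.73, 11.69 and 11.69 in yw at 20 °C and at 11.78, 12.03 and 11.63 in RpII2154/FM7. Those groups overlapped, and the difference was 0.11 ± 0.13 (adjusted p = 0.71). The dim one, 1633180_at, read 5.18, 5.07 and 5.27 in yw and 5.76, 6.73 and 6.33 in RpII2154/FM7, without overlap. Its difference was 1.10 ± 0.21 (95% interval 0.64 to 1.55, adjusted p = 0.011), and it was lost without yw replicate 2 (adjusted p = 0.060) or in a fit of the 2 groups alone (0.098). A rise of exu as a gene therefore rested on 1 of its 2 probe sets, and their mean was not called. Over 18 arrays the dim set and the actin 3′ minus 5′ difference had an r of 0.48 (rho 0.49). After each array was set against its group mean, their r was 0.06.

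Markers of other cell types were read in the same comparison of RpII2154/FM7 with yw at 20 °C. Of the 5 muscle genes 4 had a positive difference, with a median of 1.41 and 0 called, and their mean was 6.05 to 6.60 in RpII2154/FM7 against 5.33 to 5.52 in yw, without overlap. The hemocyte gene PPO1, 1 of 5 measured, was called as higher by 0.79 ± 0.19 (adjusted p = 0.040), in a list with a mean of 4.23 to 4.62 against 4.08 to 4.23. The testis gene bol, 1 of 4, was called as higher by 0.92 ± 0.21 (adjusted p = 0.030), in a list with a mean of 3.78 to 3.84 against 3.50 to 3.54. Their part in the stau and exu results, and that of the actin difference, was not tested.

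Both exu probe sets had their lowest group mean in yw at 20 °C. In Marcal1del/del at 20 °C the bright one was 12.25, 11.91 and 12.13, and the dim one 5.99, 5.82 and 6.26. On both, these arrays lay above all yw arrays, by 0.40 ± 0.13 (adjusted p = 0.27) and 0.85 ± 0.21 (adjusted p = 0.082), and neither difference was called. At 25 °C the bright set was 11.68, 12.19 and 12.02 in yw and 12.03, 12.04 and 12.06 in Marcal1del/del, a difference of 0.08 ± 0.13. In RpII2154/FM7;Marcal1del/del it was 12.13, 11.95 and 12.10, and the effect of the deletion there was 0.25 ± 0.13 (adjusted p = 0.32).

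**Figure D2:**
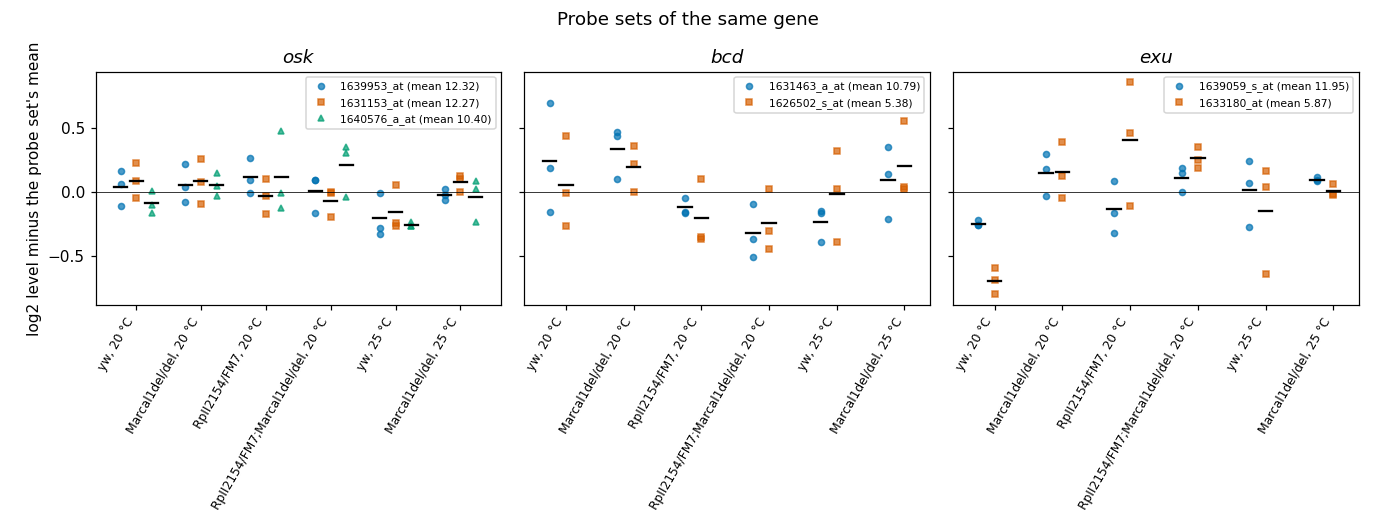
Log2 level of each probe set minus its own mean over the 18 arrays (vertical axis) in the 6 groups (horizontal axis) for osk, bcd and exu, the genes with more than 1 probe set. Points are arrays and bars are means of 3. Both exu probe sets are lowest in yw at 20 °C, where the dim one departs further from its mean.

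The gene swa, whose protein acts with Exu in placing bcd mRNA, was called in no comparison. Levels at 20 °C were 11.09, 10.96 and 11.01 in yw, 11.32, 11.05 and 11.28 in Marcal1del/del, and 10.80, 11.07 and 11.03 in RpII2154/FM7. They were 11.22, 11.18 and 11.29 in RpII2154/FM7;Marcal1del/del, above all arrays of RpII2154/FM7. That difference of 0.26 ± 0.11 had an adjusted p of 0.21, and in the same comparison muscle genes averaged 6.05 to 6.60 in RpII2154/FM7 and 4.96 to 5.66 with both alleles. Over 18 arrays swa and the muscle mean had an r of -0.70 (rho -0.69), and the part of other tissue was not tested. At 25 °C swa was 10.93, 11.28 and 11.08 in yw and 11.08, 11.22 and 11.27 in Marcal1del/del.

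The dynein adaptor BicD was lowest in yw at 25 °C. Its levels there were 9.22, 9.09 and 9.16, below every array of the other groups, as in Marcal1del/del at 25 °C (9.40, 9.53 and 9.64) and yw at 20 °C (9.81, 9.52 and 9.41). The temperature difference in yw was -0.42 ± 0.12 (unadjusted p = 0.0037, adjusted p = 0.27). No member was called there by limma, against 0.256% of all probe sets, and 3 members had an unadjusted p under 0.05. In Marcal1del/del, with 9.59, 9.68 and 9.68 at 20 °C, it was -0.12 ± 0.12, and 0 members and 0.202% of all probe sets were called, with 0 members at an unadjusted p under 0.05.

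The temperature differences of BicD in the 2 genotypes themselves differed by 0.30 ± 0.18 (95% interval -0.07 to 0.67), and limma called no member in that test. In that test 0.0107% of all probe sets were called, and 1 member had an unadjusted p under 0.05. Between Marcal1del/del and yw at 25 °C, BicD was higher by 0.37 ± 0.12 in arrays that did not overlap (adjusted p = 0.28). In that comparison 0 of 13 were called by limma, against 1.23% of all probe sets, and 2 of the 13 had an unadjusted p under 0.05. There 9 of 9 late eggshell genes were higher in Marcal1del/del, with a median of 1.66 and 0 called. Their mean was 13.64 to 13.80 in Marcal1del/del and 11.84 to 12.47 in yw, without overlap. Over 18 arrays BicD and the eggshell mean had an r of 0.06, and of -0.48 in deviations from group means. The part of egg chamber stage in the BicD differences was not tested. With RpII2154/FM7, BicD was 9.36, 9.26 and 9.57, and with both alleles it was 9.24, 9.67 and 9.39.

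Among the localised messages, bcd had the widest span of group means, 0.66 on the log2 scale. Its bright probe set, 1631463_a_at, read 10.63, 11.48 and 10.98 in yw and 10.89, 11.26 and 11.23 in Marcal1del/del at 20 °C. It was 10.63, 10.74 and 10.63 in RpII2154/FM7 and, with both alleles, 10.28, 10.42 and 10.69. The arrays with both alleles all lay below those of Marcal1del/del, by 0.66 ± 0.19 (95% interval -1.06 to -0.26), which missed the threshold (adjusted p = 0.063). There 0 of 9 eggshell genes had a positive difference, with a median of -1.91 and 2 called as lower. Over 18 arrays this bcd set and the eggshell mean had an r of 0.49 (rho 0.45), and of 0.25 in deviations from group means. The part of egg chamber stage was not tested, and array series and RpII2154/FM7 cannot be told apart here.

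That bcd difference was called without the 3 arrays that stood apart on eggshell or muscle genes (adjusted p = 0.036). It was also called when dim probe sets were left out of the adjustment (adjusted p = 0.049). Neither change touched the arrays of these groups, so the size of the difference could not change. In yw, bcd was 10.64, 10.62 and 10.39 at 25 °C, lower than at 20 °C by 0.48 ± 0.19 with overlapping groups (adjusted p = 0.56). In Marcal1del/del at 25 °C it was 11.14, 10.57 and 10.93. The dim probe set, 1626502_s_at, ranged from 4.94 to 5.94 over all arrays and differed by -0.44 ± 0.22 between both alleles and Marcal1del/del (adjusted p = 0.27).

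The group means of osk, the organiser of pole plasm, spanned 0.32 on its brightest probe set. That set, 1639953_at, was 12.20, 12.48 and 12.38 in yw, 12.24, 12.54 and 12.36 in Marcal1del/del, and 12.41, 12.31 and 12.58 in RpII2154/FM7. With both alleles it was 12.16, 12.42 and 12.41. The 4 groups at 20 °C overlapped throughout. At 25 °C it was 12.31, 11.99 and 12.03 in yw and 12.34, 12.26 and 12.29 in Marcal1del/del.

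All 3 osk probe sets had their lowest group mean in yw at 25 °C. The yw temperature difference was -0.24 ± 0.12 on each bright set (adjusted p = 0.68 and 0.69) and -0.17 ± 0.14 on 1640576_a_at (adjusted p = 0.88). On that set the yw arrays at 25 °C, 10.14, 10.17 and 10.14, lay below those at 20 °C, 10.41, 10.30 and 10.24. No osk probe set was called in any comparison. In yw at 25 against 20 °C, 0 of 9 eggshell genes had a positive difference (median -0.21), and their part was not tested.

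The level of nos, read by 1 probe set, was 12.26, 12.49 and 12.24 in yw, 12.29, 12.35 and 12.45 in Marcal1del/del and 11.97, 12.13 and 12.11 in RpII2154/FM7. With both alleles it was 12.23, 12.30 and 12.38. The RpII2154/FM7 arrays were the lowest, below all arrays of every other group. Their difference from yw was -0.26 ± 0.10 (adjusted p = 0.17). The arrays with both alleles stood 0.24 ± 0.10 above them (adjusted p = 0.21). In that last comparison 0 of 13 were called by limma, against 1.88% of all probe sets, and 3 of the 13 had an unadjusted p under 0.05. At 25 °C nos was 12.18, 12.37 and 12.20 in yw and 12.41, 12.20 and 12.29 in Marcal1del/del.

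The ligand gene grk was 8.02, 7.75 and 7.68 in yw, 7.77, 7.76 and 7.92 in Marcal1del/del, and 8.11, 7.92 and 8.21 in RpII2154/FM7. It was 7.81, 8.04 and 8.04 with both alleles, 7.91, 7.43 and 7.36 in yw at 25 °C and 7.77, 7.80 and 7.85 in Marcal1del/del at 25 °C. Neighbouring groups in the order of means overlapped. The highest mean was in RpII2154/FM7 and the lowest in yw at 25 °C. Between RpII2154/FM7 and yw at 20 °C the difference was 0.27 ± 0.14 (adjusted p = 0.34). Over 18 arrays grk and the actin 3′ minus 5′ difference had an r of 0.61 (rho 0.81). After each array was set against its group mean, their r was 0.44. In such deviations grk had an r of 0.56 with the muscle mean and of -0.40 with the eggshell mean. The part of RNA integrity, other tissue and stage in the grk values was not tested, and array series and RpII2154/FM7 cannot be told apart.

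Between Marcal1del/del and yw at 20 °C, 0 of the 13 were called by limma, against 1.18% of all probe sets. Of the 13, 3 had an unadjusted p under 0.05. The groups of egl and of both exu probe sets did not overlap there, and the share of all probe sets without overlap is not given here. The median difference over the 9 genes, each by its brightest probe set, was 0.03, and the median over all probe sets 0.01. The 95% intervals of these 9 probe sets reached a ratio of 1.59 at most at 20 °C and 1.66 at 25 °C, so larger changes of these probe sets with the deletion alone lie outside them. In the other comparisons the largest ratio reached was 1.56 to 2.23.

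**Figure D3:**
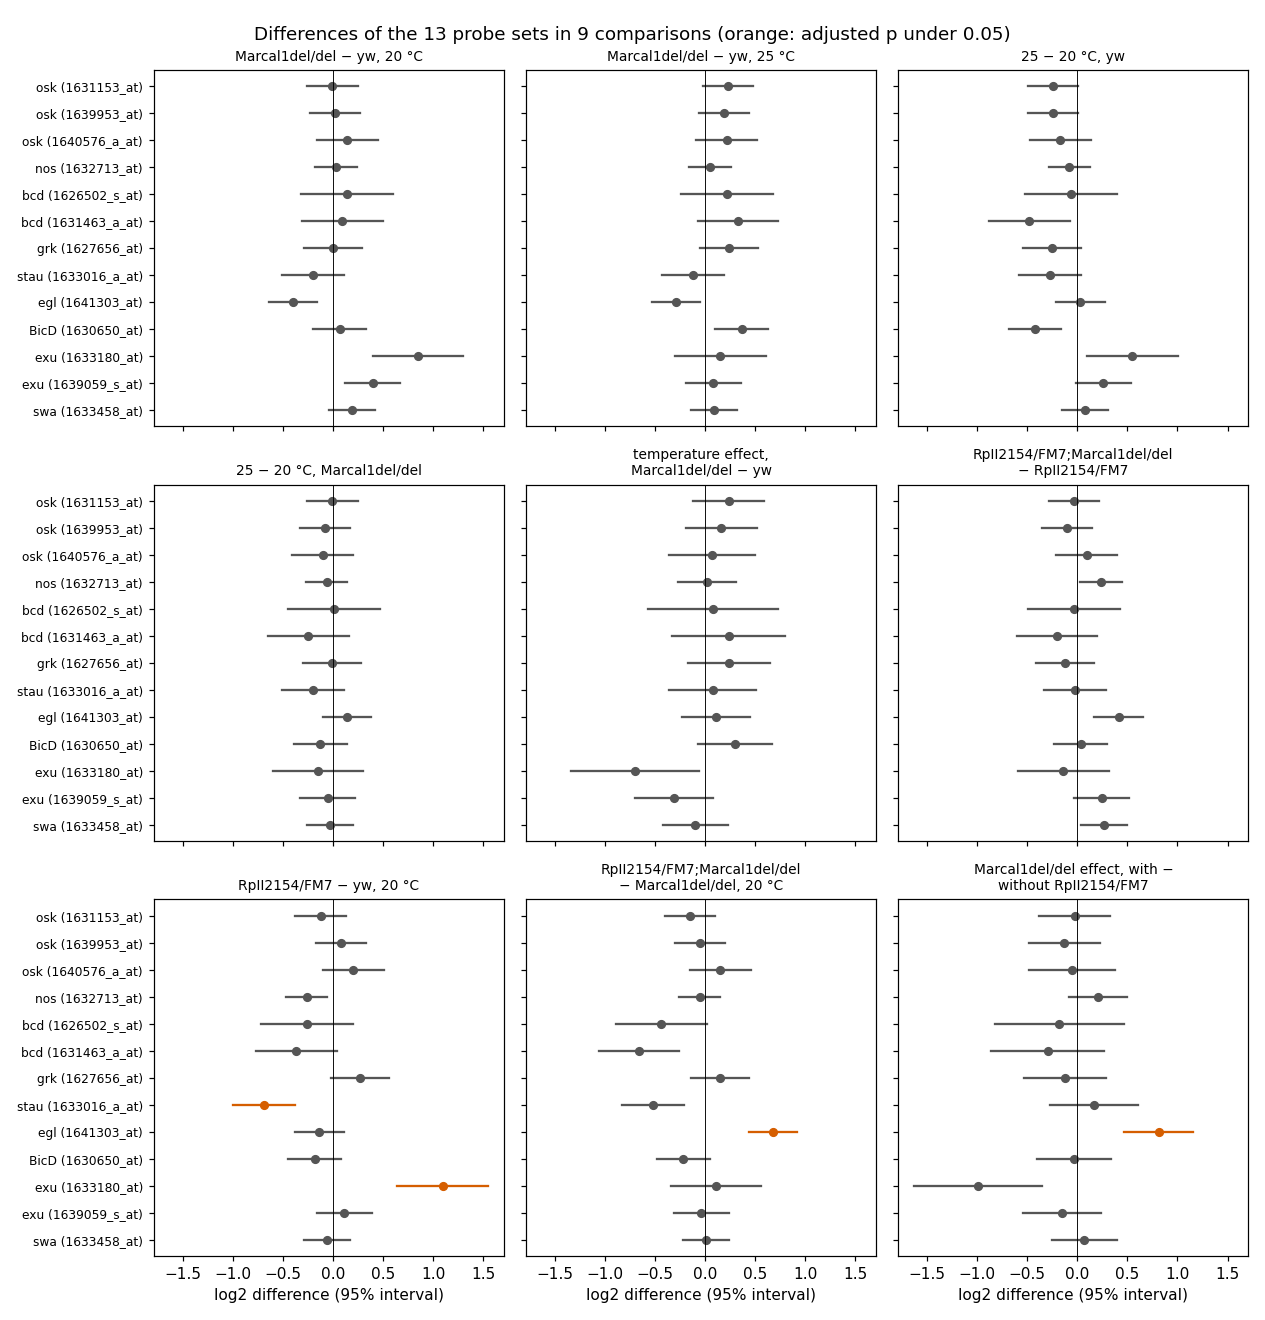
Log2 difference (horizontal axis) with its 95% interval for the 13 probe sets (vertical axis) in the 9 comparisons, 1 per panel. Orange marks an adjusted p under 0.05: stau and the dim exu probe set in RpII2154/FM7 against yw, and egl in RpII2154/FM7;Marcal1del/del against Marcal1del/del and in the difference between the deletion's effects.

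Members also varied together among arrays of one group, which share their genotype and temperature but not their RNA. After each array was set against its group mean, egl and BicD, whose products act in one complex, had a Pearson r of 0.88 over the 18 arrays. Their levels, group differences included, had an r of -0.11 (rho -0.27). The brightest osk and exu probe sets ran opposite ways in these deviations, with an r of -0.84, and nos and bcd ran together, with an r of 0.78. The levels of exu and swa had an r of 0.81 (rho 0.87) and their deviations an r of 0.72. These pairs were picked after their values were seen, and the values are a description. In such deviations the brightest probe sets of osk, exu and swa had an r of 0.59, -0.62 and -0.62 with the muscle mean, and of -0.14, 0.32 and -0.26 with the eggshell mean. For egl and BicD the r was 0.70 and 0.57 with the germline mean, and -0.37 and -0.48 with the eggshell mean. With the muscle mean it was -0.29 and -0.04. What part the germline share, other tissue or egg chamber stage had in these pairs was not tested.

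**Figure D4:**
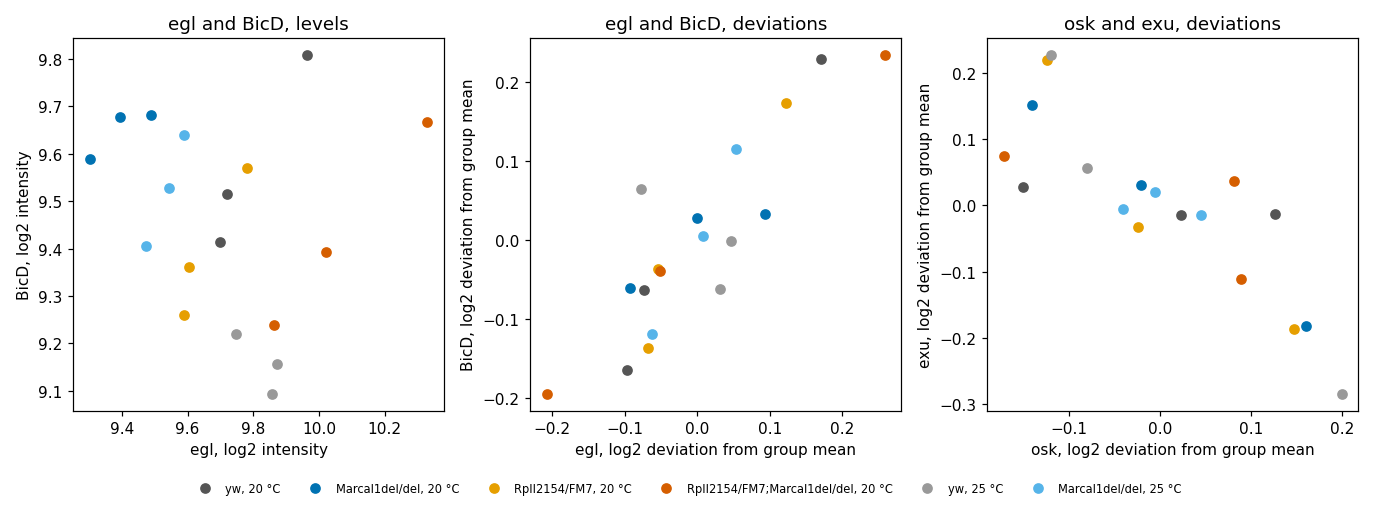
Each point is 1 of the 18 arrays, coloured by group. The left panel plots BicD against egl as log2 intensities (r = -0.11), the middle panel the same as log2 deviations from group means (r = 0.88), and the right panel exu against osk as such deviations (r = -0.84).

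Probe sets of one gene did not always move alike. The 2 brightest osk sets had an r of 0.82 in levels and 0.97 in deviations from group means, while 1640576_a_at had an r of 0.28 and 0.57 with them in levels. The bcd sets had an r of 0.30 in levels and -0.11 in deviations, and the exu sets 0.60 and 0.70. The bcd set 1626502_s_at and the exu set 1639059_s_at carry the suffix that Affymetrix gives to probes shared by several transcripts. The sources used here do not say which transcripts each set reads.

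For each member, the 3 genes with the most similar log2 profile over the 18 arrays were found among 7449 genes, with Pearson r as a description of arrays that share groups. For swa these were CG8298 (r = 0.95), CG6961 (0.93) and Hsf (0.91), and for stau Sik3 (0.91), CG10555 (0.89) and Gr61a (0.88). For exu they were neb (0.90), CG7091 (0.86) and DEF8 (0.86), for nos CG8176 (0.90), CG5746 (0.87) and CTCF (0.87), and for egl ssp3 (0.89), L (0.87) and Atac2 (0.87). The closest to bcd were Socs44A (0.87), caz (0.86) and Pect (0.85), and to grk cwo, per and sesB (0.85 each). For osk they were Dora, TTLL4A and dsd (0.83 each), and for BicD Pcif1 (0.83), MTA1-like (0.83) and Gyg (0.79). No other member appeared in any of these sets.

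Genes that act with the members were counted in 6 lists, which held 59 genes, 46 of them measured by a probe set of their own. All 46 lay above every array's median. Of 414 tests 9 (2.17%) were called, in 4 genes, against 1.37% of the tests on all probe sets. None was called among the 12 measured genes of translational control of maternal mRNAs, which include orb, me31B, otu and BicC, nor among the 13 of dynein, dynactin and oocyte microtubules, nor among the 6 of Grk processing and reception. In yw at 25 against 20 °C, 0 of those 6 had a positive difference and their median was -0.30, against 0.02 over all probe sets, with a smallest adjusted p of 0.68. In that comparison 0 of 4 follicle cell genes (median -0.28), 0 of 9 eggshell genes (-0.21) and 0 of 3 yolk genes (-0.50) had a positive difference as well. The mean of the follicle cell genes was 4.38 to 5.40 at 25 °C and 5.12 to 5.24 at 20 °C. Their part was not tested.

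Pole plasm genes held 2 of the called genes among 6 measured. The gene vls, which encodes a methylosome subunit needed for pole plasm, was 9.55 ± 0.07 (SD, n = 3) in RpII2154/FM7, 9.40 ± 0.20 in Marcal1del/del and 8.75 ± 0.16 with both alleles. It fell by 0.81 ± 0.17 (SE) against the first (adjusted p = 0.021) and by 0.66 ± 0.17 against the second (adjusted p = 0.040), in comparisons that called 1.88% and 3.85% of all probe sets. The gene aub, a Piwi-family protein gene of the piRNA pathway that also acts on nos mRNA, was 9.01 ± 0.08 in yw at 20 °C and 9.57 ± 0.07 at 25 °C, a rise of 0.55 ± 0.08 (adjusted p = 0.0053). In Marcal1del/del it rose with temperature by 0.62 ± 0.08 (adjusted p = 0.0028). Of all probe sets 0.256% and 0.202% were called in these comparisons.

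At 20 °C aub was higher in RpII2154/FM7 than in yw by 0.74 ± 0.08 (adjusted p = 9.1e-05) and higher with both alleles than in Marcal1del/del by 0.44 ± 0.08 (adjusted p = 0.0059). Those comparisons called 2.76% and 3.85% of all probe sets. In both, array series and RpII2154/FM7 cannot be told apart, which also holds for the vls difference from Marcal1del/del.

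In the list of osk mRNP assembly and transport, 1 of 6 measured genes was called. That gene, Syp, which encodes an RNA-binding protein of the hnRNP family, was 0.73 ± 0.18 higher in RpII2154/FM7 than in yw (adjusted p = 0.040) and 0.83 ± 0.18 lower with both alleles than in RpII2154/FM7, where the fitted difference was -0.83 (adjusted p = 0.027). These comparisons called 2.76% and 1.88% of all probe sets. Muscle genes had a median difference of 1.41 in the first and -1.31 in the second, hemocyte genes 0.34 and -0.45, with PPO1 called in each, and follicle cell genes 0.31 and -0.53. Their part in the Syp result was not tested. In the list of bcd mRNA anchoring, lsn, which encodes an ESCRT-II subunit, was called among 5, at 0.49 ± 0.12 between both alleles and Marcal1del/del (adjusted p = 0.033), where 3.85% of all probe sets were called and the eggshell median was -1.91. Array series and RpII2154/FM7 cannot be told apart in that lsn difference or in the Syp difference from yw.

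The calls of stau, egl and the dim exu set were also read without the 3 arrays that stood apart. The stau difference between RpII2154/FM7 and yw was then -0.78 (adjusted p = 0.041), that of the dim exu set 1.07 (adjusted p = 0.024), and the egl difference between the deletion's effects 0.79 (adjusted p = 0.031). In egl, both alleles against RpII2154/FM7 then gave 0.47 and passed the threshold (adjusted p = 0.046).

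**Figure D5:**
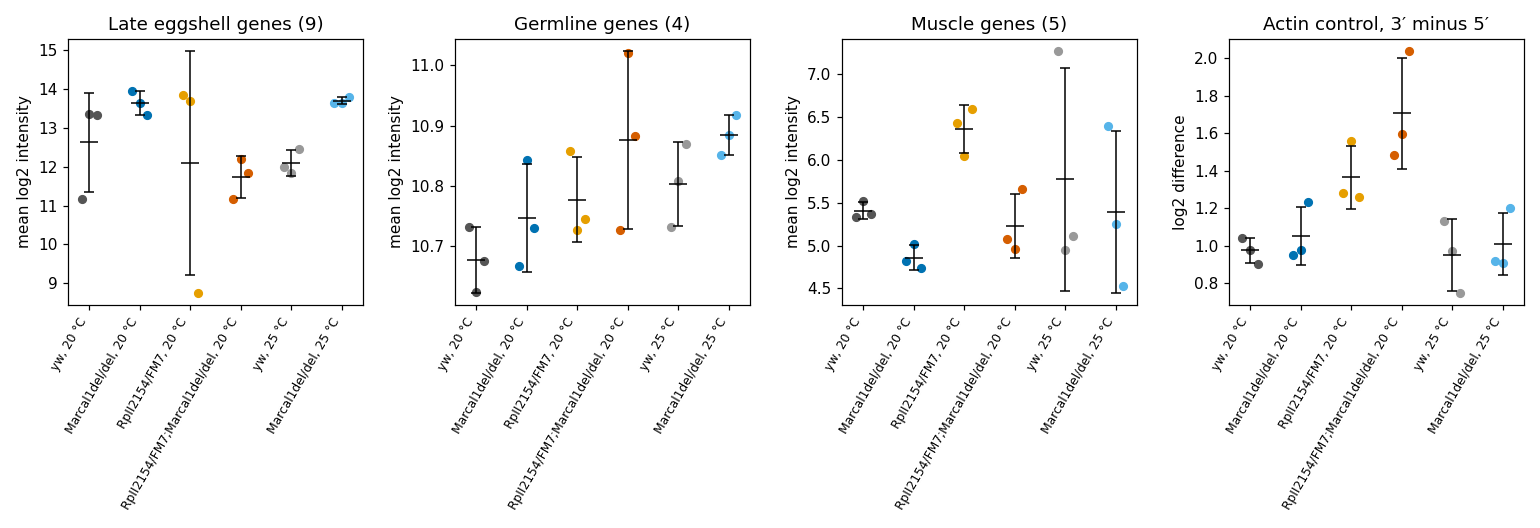
Mean log2 intensity of late eggshell, germline and muscle genes and the actin 3′ minus 5′ log2 difference (vertical axes) in the 6 groups (horizontal axes). Points are arrays, bars the mean ± SD of 3. RpII2154/FM7 replicate 3 (8.75) is the lowest point for eggshell genes, and the actin difference is highest in the groups with RpII2154/FM7.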

How the data were processed

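The authors deposited log2 values for each array, which RMA produced according to the submitters' processing notes (per the labels). The sources used here state no software version. Because RMA equalises the distributions of the arrays, a shift common to most transcripts is not visible. Of 18952 probe sets, 183 controls were set aside and 18769 tested without a filter. The platform annotation names 1 gene for 13647, several for 402 and none for 4720.

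limma 3.58.1 in R 4.3.3 was fitted on all 18 arrays with a group term (residual degrees of freedom 12, prior 3.85), 2-sided, with Benjamini-Hochberg adjustment over all probe sets within each of 9 comparisons and an F test over 6 groups. The threshold was an adjusted p of 0.05, intervals are 95%, and the script was tested on simulated data. The number of arrays limits the precision. A gene with several probe sets was represented by the one with the highest mean.

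Named were all members, Marcal1, up to 4 called genes per list and comparison, and the 3 most similar profiles per member. Members and lists were chosen with earlier results of these data known. Alternatives were other scalings, a filter, array weights, gene means, other variance settings, fits on fewer arrays and the replicate number as a block.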

Additional observations from a re-analysis of the deposited data

Results flagged for a closer look

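In egl, the effect of the Marcal1 deletion with RpII2154/FM7 minus that without it was 0.81 on the log2 scale (limma, adjusted p = 0.020), the only member for which the test of a difference between 2 effects passed the threshold. All arrays of Marcal1del/del lay below all of yw, and all of RpII2154/FM7;Marcal1del/del lay above all of RpII2154/FM7. For the same effects the 9 late eggshell genes had median differences of the opposite signs, 0.89 without and -0.43 with RpII2154/FM7, none of them called. For the difference between these effects their median was -1.59, with 0 called. Their mean was 11.17, 13.36 and 13.34 in yw and 13.33 to 13.96 in Marcal1del/del. It was 13.83, 13.68 and 8.75 in RpII2154/FM7 and 11.16 to 12.21 with both alleles. The part of these genes in the egl result was not tested.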

How the results depend on the processing

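Over the 117 member tests, 1992 values under alternatives held 12 that lost the threshold, 34 that gained it and 0 called values that changed sign. Of these alternatives, all 16 kept the call of egl between both alleles and Marcal1del/del (0.55 to 0.78, adjusted p up to 0.044). None of them can separate array series from RpII2154/FM7. Of 16, 12 kept stau between RpII2154/FM7 and yw, of 15, 13 kept the dim exu set there, and of 22, 16 kept the egl difference between effects.

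Counts of members called moved as follows, and the cause was not tested. Without the 3 arrays that stood apart, both alleles against RpII2154/FM7 gave 1 in place of 0, both alleles against Marcal1del/del 2 in place of 1, and the F test 5 in place of 3. Over all probe sets these called 743 in place of 352, 1271 in place of 722, and 2864 in place of 1642. Quantile normalization and gene means each gave 2 in place of 3 in the F test, both without exu, with 1782 of 18769 probe sets and 1356 of 11982 genes called. Array weights gave 3 in place of 2, with grk, for RpII2154/FM7 against yw, where 2175 probe sets were called in place of 518. Leaving out dim probe sets gave 3 and gene means 2 for both alleles against Marcal1del/del, with 768 of 9384 probe sets and 616 of 11982 genes called. Gene means gave 1 in place of 2 for RpII2154/FM7 against yw, with 401 of 11982 genes called. Array weights gave 3 for Marcal1del/del against yw at 20 °C, 4 at 25 °C, 7 for temperature in yw, where 5109 probe sets were called in place of 48, and 11 in the F test. Over all probe sets these weights called 1270 in place of 221 at 20 °C, 1233 in place of 230 at 25 °C, and 7951 in place of 1642 in the F test. With these weights replicate 3 of yw at 20 °C took a weight of 10.8, and the estimate stopped before it converged. Weights estimated gene by gene, added after seeing the data, gave 2, 3, 6 and 8, with 557, 890, 1686 and 4540 of all probe sets called. Fits on the compared arrays alone gave 1 for Marcal1del/del against yw at 20 °C, and 0 for RpII2154/FM7 against yw and for the difference between the deletion's effects. Over all probe sets they called 134, 137 and 145.

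Leaving out 1 array at a time gave 0 to 2 calls for RpII2154/FM7 against yw, 1 to 2 for both alleles against Marcal1del/del, 0 to 1 for the difference between the deletion's effects and 2 to 4 in the F test. It gave 0 in the other 6 comparisons. Equal replicate numbers did not pair samples: deviations of same-numbered arrays correlated at -0.33 to 0.47, and 5 of 18 arrays correlated best with their own number. With the replicate number as a block, member calls stayed at 0, 2, 1, 1 and 3 as without it. Over all probe sets the block gave 403 in place of 518 for RpII2154/FM7 against yw and 604 in place of 722 for both alleles against Marcal1del/del. It gave 166 in place of 182 for the difference between the deletion's effects and 1313 in place of 1642 in the F test.

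Counts over all probe sets moved with the same choices. They ranged from 127 to 1270 around 221 for Marcal1del/del against yw at 20 °C and from 125 to 1233 around 230 at 25 °C. For temperature the range was 2 to 5109 around 48 in yw, 10 to 159 around 38 in Marcal1del/del, and 2 to 13 around 2 for their difference. With RpII2154/FM7 it was 146 to 743 around 352 for the deletion and 128 to 349 around 182 for the difference between the deletion's effects. For RpII2154/FM7 itself it was 137 to 2175 around 518 against yw and 333 to 1271 around 722 against Marcal1del/del. In the F test it was 1177 to 7951 around 1642.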
